A study of Rattus norvegicus with 12 samples.

Results

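The genes described here encode factors that start and extend protein synthesis on cytosolic ribosomes, and proteins that repress, modify or are named after them. Together they are called translation factor genes here. They were chosen by symbol: every gene on the array whose symbol begins with Eif or Eef, except Eif2ak2 and Eif2ak4. This gave 59 of the 16667 genes that could be named on the array, and 57 of the 59 passed the filter on dim probes, among 21858 genes tested. Of the 21858, 11389 had a gene symbol, and the rest had no matched symbol and were each counted as a gene. Shares of all genes below are over all 21858, and shares over the named genes alone are not given. All 57 were well above background on all 12 arrays. Eef1akmt2 did not pass, nor did Eif5a2, whose pair of probes was well above background on 0 arrays.

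The liver RNA came from 12 adult male Wistar rats. The 6 control rats ate 14% casein for 4 weeks. The 6 low protein rats ate a diet of equal calories that held 5% casein for the same time. The rats were untreated otherwise as far as the labels say, their age beyond adult is not given in the sources used here, and each rat had an array of its own.

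Translation starts when eIF2, loaded with GTP and the initiator tRNA, joins the small ribosomal subunit together with eIF1, eIF1A, eIF3 and eIF5, while eIF4F binds the cap of the mRNA and unwinds its leader. Amino acid supply acts on this process at a pair of known points. Kinases phosphorylate the alpha subunit of eIF2, which then blocks its exchange factor eIF2B, and the 4E-BP proteins hold the cap-binding protein eIF4E unless mTORC1 phosphorylates them. In elongation, eEF1A brings the charged tRNA to the ribosome, the eEF1B complex recycles eEF1A, and eEF2 moves the ribosome along the mRNA.

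Of the 57 translation factor genes, 9 were higher in low protein liver and 0 were lower (limma, adjusted p under 0.05). The 9 are 15.8% of those tested, against 3.48% of all genes tested called higher, 3.05% called lower and 6.53% called in either direction. Eif4ebp1, which encodes the repressor 4E-BP1, rose 2.38-fold, and Eif2b3, a subunit of the exchange factor eIF2B, rose 1.65-fold. Eef1e1, whose product AIMP3 sits in the complex of tRNA synthetases, rose 1.49-fold. The eIF3 subunit genes Eif3g, Eif3c and Eif3m rose 1.35-, 1.29- and 1.23-fold, and Eif2s1, Eif2s2 and Eif1ad rose 1.26-fold each. The alpha, beta and gamma subunits of eIF2 come from Eif2s1, Eif2s2 and Eif2s3, and Eif2s3 did not pass the test. In bulk tissue, a change in the number of cells of a type and a change in RNA per cell cannot be told apart.

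Most of the other members differed little between the diets. The median log2 difference, low protein minus control, was 0.12 over the 57 genes, with quartiles at 0.02 and 0.27, and -0.03 over all genes tested, with quartiles at -0.17 and 0.12. It was above 0 in 44 of the 57 (77.2%), against 44.9% of all genes. The 48 members that did not pass the test lay between -0.24 and 0.38, with a median of 0.07. At an unadjusted p under 0.05, 18 members were higher (31.6%, against 10.3% of all genes) and 3 were lower (5.26%, against 11.3%). The level of each gene is given below as log2 signal less the 75th percentile of its array, so 0 is the level of that percentile, and every error of a difference is a standard error over 6 rats per diet.

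**Figure D1:**
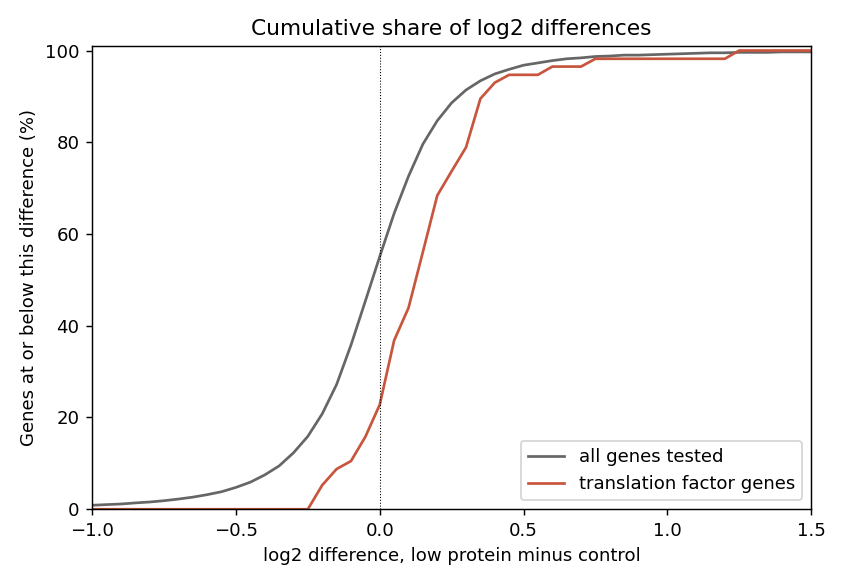
Cumulative share (%) of genes at or below each log2 difference (x axis, low protein minus control), for the 57 translation factor genes and for all 21858 genes tested. At a difference of 0 the curve of the translation factor genes stands at 22.8% and that of all genes at 55.1%.

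The small shift was present in each low protein rat. Relative to the mean of the control rats, the median of the 57 genes lay between -0.06 and 0.06 in the control rats and between 0.10 and 0.18 in the low protein rats. The groups did not overlap in this value. The median of all genes, taken in the same way, lay between -0.04 and 0.04 in control rats and between -0.11 and 0.02 in low protein rats. The number of members above the control mean ran from 17 to 40 in control rats and from 35 to 44 in low protein rats, so in this count the groups overlapped.

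The arrays lay on 2 slides, which were also separate scans. Control rats 2 and 4 shared slide 2 with low protein rats 5 and 6, and the other 4 rats of each diet were on slide 1. The difference was positive on both slides in 37 members, negative on both in 9 and of unlike sign in 11. All 9 members that rose were positive on both. Because they were called on these same arrays, that shared sign is not a separate check. Between 61.2% and 69.9% of the spots of an array were well above background. Markers of liver cell types were read beside the members. The 6 hepatocyte markers were well above background on all 12 arrays. Of these, 0 rose and 3 fell: Apoa1 by 0.84, Cps1 by 0.68 and Tat by 2.02 on the log2 scale. Alb, Ttr and Serpina1 differed by -0.20, -0.07 and -0.15 and did not pass. The mean level of the 6 hepatocyte markers was 4.65 to 5.19 in control rats and 4.12 to 4.51 in low protein rats. The large fall of Tat weighs on this mean. Of 6 Kupffer cell markers, 6 stellate cell, 5 endothelial cell, 4 bile duct cell and 3 lymphocyte markers tested, 0 changed by limma's adjusted p. At an unadjusted p under 0.05, 4 Kupffer cell markers and 1 bile duct marker were lower, against 11.3% of all genes. All 6 Kupffer cell markers had a difference below 0, with a median of -0.39. The difference was above 0 in 1 stellate cell, 3 endothelial cell, 1 bile duct and 1 lymphocyte marker. Mean levels of the marker lists in control and low protein rats ran from -0.64 to 0.43 and -0.53 to -0.17 for Kupffer cells, from -2.43 to -1.84 and -2.63 to -2.04 for stellate cells, and from 0.40 to 0.54 and 0.40 to 0.48 for endothelial cells. For bile duct cells they ran from -5.00 to -4.05 and -5.29 to -4.37, and for lymphocytes from -4.93 to -4.43 and -5.19 to -3.84. The part of cell composition in the members' differences was not tested.

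The number of members called depended on the set of rats. It was 3 without control rat 1, 3 or 4, in each case Eif4ebp1, Eif2b3 and Eif3g. It was 4 without low protein rat 6 and 5 without control rat 2 or low protein rat 2, 4 or 5. Without any other rat it was 6 to 8, and with all 12 rats in turn left out the share of all genes called higher was 2.02% to 3.38%. Every one of the 9 kept a positive difference in all of these fits. Eif4ebp1, Eif2b3 and Eif3g passed in all 12, Eif2s2 in 8 (adjusted p up to 0.0561), Eif3c in 6 (up to 0.0677) and Eef1e1 in 5 (up to 0.0711). Eif2s1 passed in 3 (up to 0.0735), Eif3m in 2 (up to 0.0758) and Eif1ad in 2 (up to 0.0919).

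**Figure D2:**
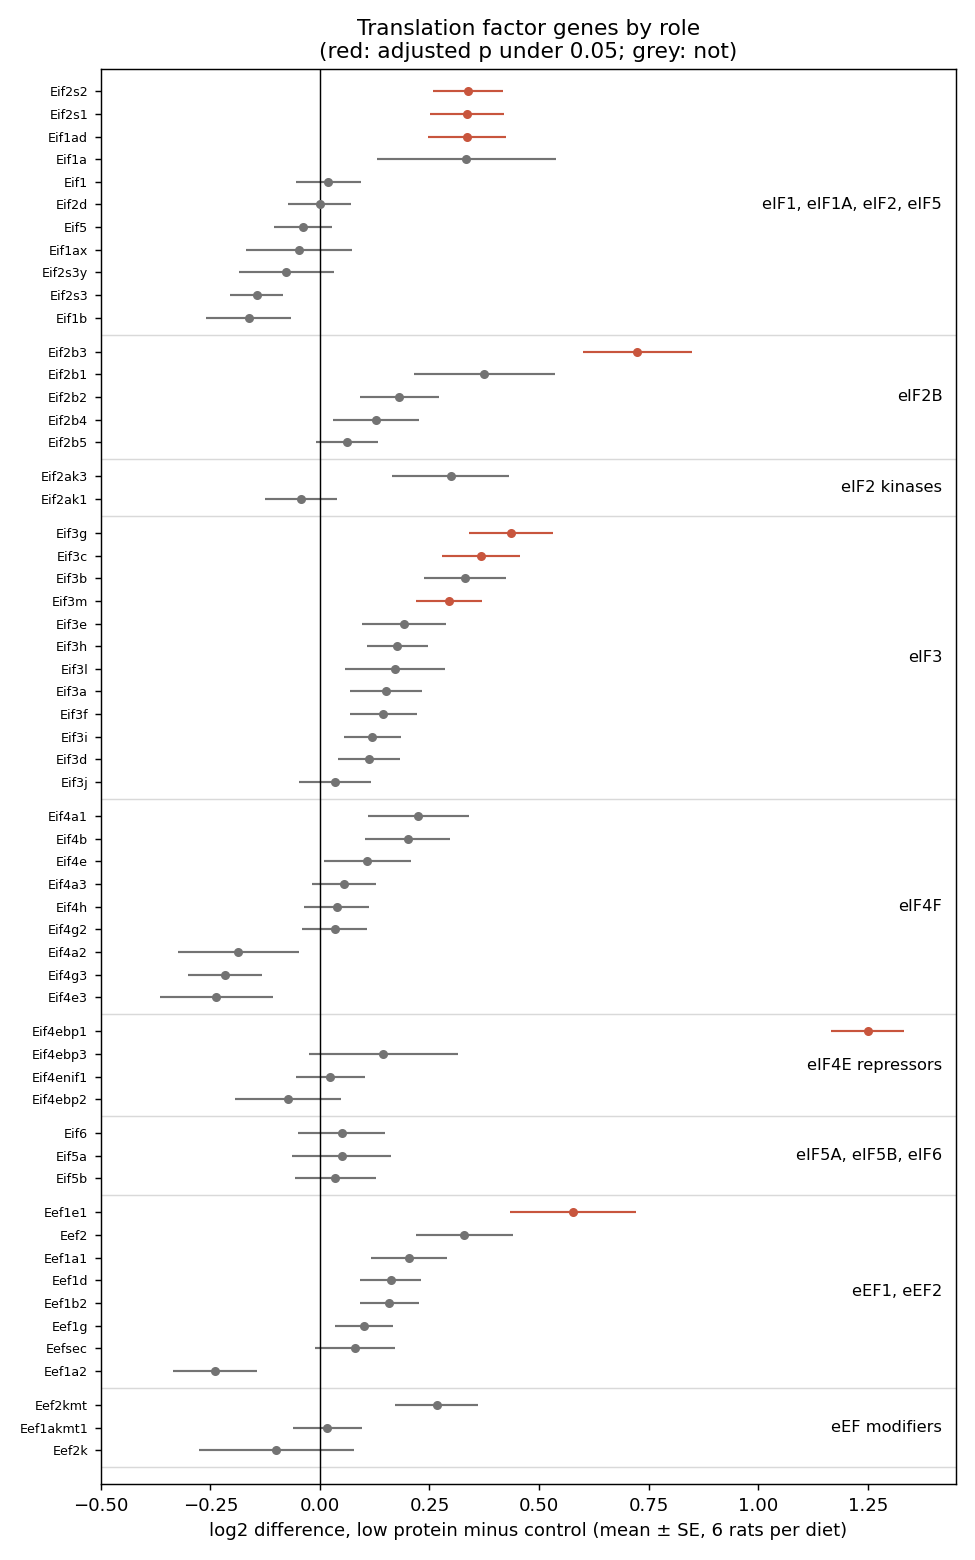
Log2 difference, low protein minus control (x axis, mean ± SE, 6 rats per diet), of the 57 translation factor genes grouped by role, with genes at an adjusted p under 0.05 in red and the others in grey. All 12 eIF3 genes lie above 0, Eif4ebp1 stands at 1.25, and 13 members lie below 0.

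Promoters were read for the amino acid response because its effector ATF4 binds composite C/EBP-ATF elements. RefSeq promoters of the GRCr8 assembly, 250 bases before to 50 after the start, were found for 53 of the 59 members and for 8 of the 9 that rose, all but Eif4ebp1. The core of the C/EBP-ATF element, TGATGNAA on either strand, was found in 3.98% of 33469 promoters and in 2.54% of the 10017 promoters of tested genes. It was found in 2 members (3.77%), Eif2s2 and Eif3g, which are both among the 8. Counted from the start of transcription, it lies at -36 to -29 in Eif2s2, on the gene's strand, and at -239 to -232 in Eif3g, on the other strand. The E-box CACGTG, which reads the same on both strands, was in 6.42% of all promoters, 8.67% of those of tested genes and 18.9% of the members' (10 of 53), and in 0 of the 8. The 10 were Eif1b, Eif3a, Eif3b, Eif3f, Eif4e, Eif4h, Eif5a, Eif5a2, Eef2 and Eef2k. These matches describe letters only, and binding was not measured. The 250 bases before the start of both matching genes are shown 5′ to 3′ on the gene's strand, the minus strand of chr3:163855571-163855820 for Eif2s2 and of chr8:27709947-27710196 for Eif3g, with the element in capitals.
Eif2s2: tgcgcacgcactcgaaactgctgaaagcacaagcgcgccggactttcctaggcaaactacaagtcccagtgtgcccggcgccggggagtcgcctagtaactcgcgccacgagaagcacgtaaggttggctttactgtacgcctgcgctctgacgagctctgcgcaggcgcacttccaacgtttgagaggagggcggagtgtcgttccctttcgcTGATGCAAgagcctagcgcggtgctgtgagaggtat
Eif3g: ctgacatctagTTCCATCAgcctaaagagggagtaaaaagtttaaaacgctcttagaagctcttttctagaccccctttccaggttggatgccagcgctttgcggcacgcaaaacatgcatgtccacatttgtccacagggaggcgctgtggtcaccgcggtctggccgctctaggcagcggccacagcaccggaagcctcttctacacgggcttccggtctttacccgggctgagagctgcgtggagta

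Of the repressors that bind eIF4E, Eif4ebp1 alone passed the test among 4 tested. Its level was 2.46 to 2.69 (median 2.58) in control rats and 3.67 to 4.06 (median 3.80) in low protein rats. Every low protein rat was far above every control rat, and the gap between the groups was wider than the range of either. The difference was 1.25 ± 0.08 (adjusted p = 7.48e-06), 1.28 on slide 1 and 1.19 on slide 2, and it passed under all 23 settings and left-out rats that used both slides (adjusted p 3.05e-07 to 0.000293). Fitted on a slide alone, its adjusted p was 0.00426 on slide 1 and 0.208 on slide 2, which held 2 rats per diet. The alternatives counted below are these 23. Its paralog Eif4ebp2 was at 0.76 to 1.04 (median 0.86) in control rats and at 0.37 to 1.17 (median 0.77) in low protein rats, and Eif4ebp3 was at -0.52 to 0.34 (median -0.33) and -0.40 to 0.21 (median 0.02). For both paralogs the groups overlapped broadly, with differences of -0.07 ± 0.12 (adjusted p = 0.795) and 0.14 ± 0.17 (adjusted p = 0.685). Eif4enif1, which encodes the eIF4E transporter 4E-T, differed by 0.02 ± 0.08 (adjusted p = 0.901).

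The unequal change of the paralogs was tested within each array, in 4 pairs of genes with p-values adjusted over the 4. The difference of Eif4ebp1 exceeded that of Eif4ebp2 by 1.32 ± 0.14 (95% interval 1.01 to 1.63; exact two-sided permutation test over all splits of the 12 arrays, p = 0.00216, adjusted 0.00433). It exceeded that of Eif4ebp3 by 1.10 ± 0.19 (0.69 to 1.52; exact permutation p = 0.00216, adjusted 0.00433). An exact permutation p of 0.00216 is the smallest this design allows. Both pairs use the arrays on which Eif4ebp1 was called, and were chosen with earlier results of these data known. Their p-values are therefore not support separate from that call. In both pairs the value of all 6 low protein rats lay above that of every control rat. The sign of Eif4ebp2 turned with scaling (0.06 with no scaling) and between slides (0.08 on slide 1 and -0.38 on slide 2).

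**Figure D3:**
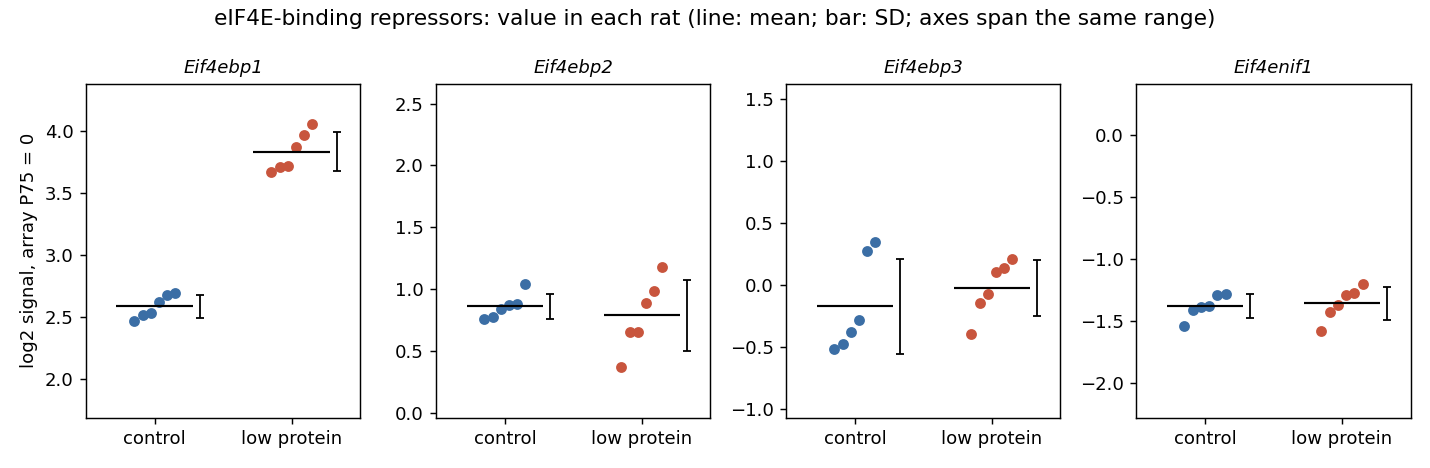
Log2 signal less the array's 75th percentile (y axis, panels spanning the same range of log2 units) of 4 repressors that bind eIF4E, with a point for each of 6 rats per diet, a line at the mean and a bar for the SD. The groups stand apart for Eif4ebp1 and overlap for Eif4ebp2, Eif4ebp3 and Eif4enif1.

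Of the 5 genes of eIF2B, the factor that exchanges GDP for GTP on eIF2, 1 rose and all 5 had a difference above 0. Among all members 15.8% were called higher and 77.2% were above 0, and among all genes 3.48% and 44.9%. The median of the 5 was 0.18 (0.31 without scaling). All 5 were also above 0 with normexp background correction, quantile normalization and the deposited values. Leaving out the scaling adds nearly the same amount to every gene, so the sign there is no separate check. Eif2b3, the gamma subunit, was at -2.45 to -1.90 (median -2.24) in control rats and at -1.72 to -1.22 (median -1.53) in low protein rats. The groups did not overlap, which held for 3.0% of all genes in this direction and for 8 members (14.0%). The difference was 0.72 ± 0.13 (adjusted p = 0.00571) and passed under all 23 alternatives on both slides together (adjusted p 0.00283 to 0.0206). On slide 1 alone Eif2b3 had an adjusted p of 0.0791 and on slide 2 alone of 0.399.

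The other subunits of eIF2B had smaller differences and did not pass. Eif2b1, the alpha subunit, ran from -3.63 to -2.96 (median -3.28) in control and from -3.22 to -2.42 (median -2.95) in low protein rats, a difference of 0.38 ± 0.16 (adjusted p = 0.196). Of the low protein rats, 4 were above the highest control rat. The differences were 0.18 ± 0.09 for the beta subunit Eif2b2 (adjusted p = 0.268), 0.13 ± 0.10 for the delta subunit Eif2b4 (adjusted p = 0.501) and 0.06 ± 0.07 for the catalytic epsilon subunit Eif2b5 (adjusted p = 0.679). Whether Eif2b3 differed from the other subunits in its change was not tested.

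Among 11 genes grouped with the factors that form the ternary complex and find the start codon, 3 rose and 0 fell. The 3 were Eif2s1, Eif2s2 and Eif1ad, the last grouped here only for its eIF1A domain. Called higher were 15.8% of all members and 3.48% of all genes. The median difference of the 11 was -0.00, or -0.03 to 0.13 under the other scalings and value sources. Eif2s2, the beta subunit of eIF2, was at 1.68 to 1.99 (median 1.83) in control rats and at 2.02 to 2.37 (median 2.15) in low protein rats. Eif2s1, the alpha subunit, whose phosphorylated serine blocks eIF2B, was at 1.26 to 1.62 (median 1.43) and at 1.63 to 2.04 (median 1.75). In both genes the groups met closely but did not overlap. The difference was 0.34 ± 0.08 for each, with an adjusted p of 0.0259 for Eif2s2 and 0.0344 for Eif2s1. The second probe of Eif2s2 gave 0.67. Without scaling, Eif2s1 and Eif2s2 did not pass, and over the 23 alternatives the adjusted p ran from 0.00301 to 0.0887 for Eif2s2 and from 0.0169 to 0.11 for Eif2s1.

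Eif2s3, the gamma subunit, stood on the other side. It was at -2.40 to -2.26 (median -2.35) in control rats and at -2.61 to -2.43 (median -2.45) in low protein rats. It was the 1 member whose low protein values all lay below the control values (1.75% of members, against 1.99% of all genes). The difference was -0.14 ± 0.06 (adjusted p = 0.182), and its second probe gave 0.03. The related Y-linked gene Eif2s3y differed by -0.08 ± 0.11 (adjusted p = 0.752).

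Eif1ad, which encodes a protein with an eIF1A domain, was at 0.20 to 0.37 (median 0.28) in control rats and at 0.41 to 0.85 (median 0.62) in low protein rats. The groups did not overlap, and the low protein rats were spread more widely than the control rats. The difference was 0.34 ± 0.09 (adjusted p = 0.0423, 0.0139 to 0.127 over the alternatives), with 0.23 on slide 1 and 0.54 on slide 2, and the second probe gave 0.17. The factors of start codon choice themselves, Eif1, Eif1ax, Eif1b and Eif5, differed by 0.02, -0.05, -0.16 and -0.04, each with an adjusted p above 0.36. Eif1a differed by 0.33 ± 0.20 (adjusted p = 0.383), with control rats spread from -0.46 to 0.91. Eif2d, which can bring initiator tRNA without eIF2, differed by -0.00 ± 0.07, while its second probe gave -0.39 (unadjusted p = 0.0461 by limma).

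Both kinase genes within the rule are known sensors of stress other than amino acid lack. Eif2ak3 encodes PERK, the kinase of the endoplasmic reticulum, and Eif2ak1 encodes HRI, the kinase regulated by heme. Eif2ak3 was at -2.52 to -1.83 (median -1.98) in control and at -2.11 to -1.51 (median -1.75) in low protein rats, a difference of 0.30 ± 0.13 (adjusted p = 0.214). Eif2ak1 was at 0.91 to 1.13 (median 1.06) and at 0.87 to 1.24 (median 0.93), a difference of -0.04 ± 0.08 (adjusted p = 0.817) that was 0.09 without scaling. The groups overlapped in both. The change of Eif2ak1 less that of Eif2ak3 was -0.34 ± 0.16 (95% interval -0.70 to 0.02; exact permutation p = 0.0519, adjusted 0.0671). That pair did not pass, and its interval includes a difference of 0. It passed with quantile normalization (exact permutation test, adjusted p = 0.0404) and with the mean of probes (0.0317).

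The genes of eIF3, the large scaffold that holds the small subunit and the mRNA-bound factors together, all lay on the same side. Of 12 tested, 3 rose and 0 fell, and all 12 had a difference above 0, with a median of 0.17 (0.31 without scaling) and a range of 0.03 to 0.44. Among all members 15.8% were called higher and 77.2% were above 0, and among all genes 3.48% and 44.9%. All 12 eIF3 genes were above 0, and above the median of all genes, with normexp background correction, quantile normalization and the deposited values as well. Leaving out the scaling adds nearly the same amount to the difference of every gene, so that setting is no separate check of either. Eif3g was at -0.97 to -0.52 (median -0.79) in control rats and at -0.53 to -0.12 (median -0.32) in low protein rats. Of the low protein rats, 5 were above every control rat, and the lowest lay just under the highest control rat. The difference was 0.44 ± 0.10 (adjusted p = 0.0182).

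Eif3c, part of the core of the complex, was at 2.78 to 3.05 (median 2.87) in control rats and at 3.08 to 3.47 (median 3.27) in low protein rats. Eif3m was at 1.26 to 1.63 (median 1.5) and at 1.66 to 1.91 (median 1.76). Neither gene had overlapping groups. The differences were 0.37 ± 0.09 (adjusted p = 0.0281) and 0.30 ± 0.08 (adjusted p = 0.0359). Under quantile normalization Eif3c did not pass, without scaling neither passed, and over the alternatives the adjusted p ran from 0.0118 to 0.0899 for Eif3c and from 0.0169 to 0.125 for Eif3m.

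Eif3b, a core subunit that other subunits assemble on, lay close to the threshold. It was at -0.86 to -0.31 (median -0.43) in control rats and at -0.25 to 0.00 (median -0.16) in low protein rats, and the groups did not overlap. The difference was 0.33 ± 0.09 (adjusted p = 0.0565), and it passed without scaling, with a filter of all 12 arrays and with a trended robust spread. The other 8 subunit genes ran from 0.03 for Eif3j to 0.19 for Eif3e. Between them lay Eif3h at 0.18, Eif3l at 0.17, Eif3a at 0.15, Eif3f at 0.14, Eif3i at 0.12 and Eif3d at 0.11. Their adjusted p was 0.153 for Eif3h and above 0.26 for the others.

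**Figure D4:**
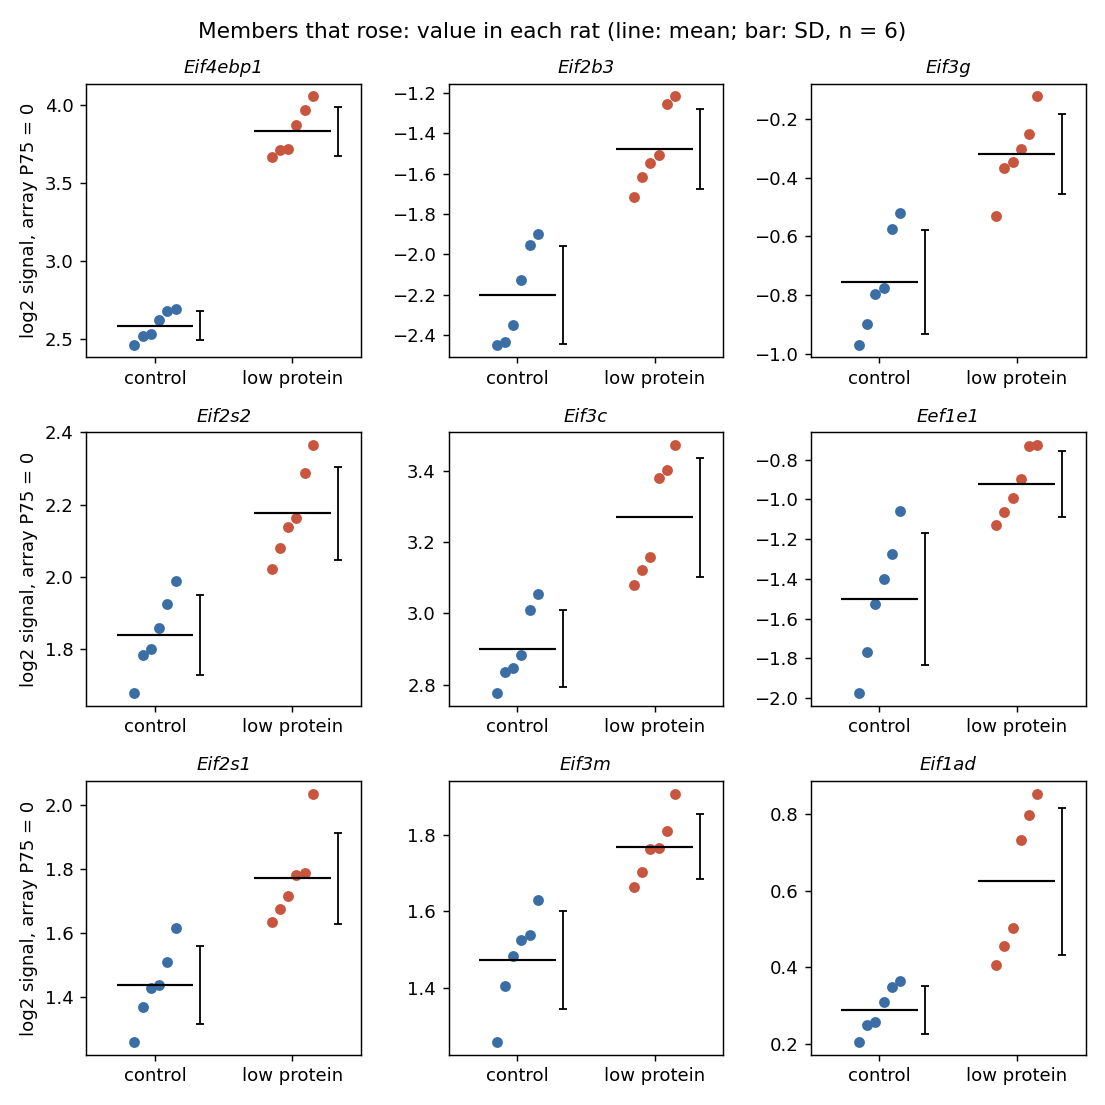
Log2 signal less the array's 75th percentile (y axis, a scale of its own per panel) of the 9 members that rose, with a point for each of 6 rats per diet, a line at the mean and a bar for the SD. The groups do not overlap in 7 of the 9, and Eif3g and Eef1e1 have 5 and 4 low protein rats above the highest control rat. Of all genes tested, 3.0% do not overlap in this direction. The 9 were called on these same arrays, so their separation is not a separate check.

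None of the 9 genes tested that were grouped with eIF4F by name or role changed (limma, adjusted p under 0.05), and their median difference was 0.04. The 9 include relatives by name such as Eif4a3 and Eif4g2, so they do not describe eIF4F alone. Eif4g1, which encodes the main eIF4G scaffold, was not analysed here, so the 9 do not cover the whole complex. At an unadjusted p under 0.05, 0 were higher and 1 was lower, Eif4g3, a paralog of the scaffold eIF4G, at -0.22 ± 0.08 (adjusted p = 0.155). Over all genes, 10.3% were higher and 11.3% lower at that threshold. Eif4e, the cap-binding protein that 4E-BP1 holds, was at -1.59 to -1.04 (median -1.21) in control and at -1.23 to -0.96 (median -1.17) in low protein rats, and the groups overlapped. Its difference was 0.11 ± 0.10 (adjusted p = 0.589), and that of Eif4e3 was -0.24 ± 0.13 (adjusted p = 0.318). Eif4b, which stimulates the helicase, differed by 0.20 ± 0.10 (adjusted p = 0.262), and Eif4h, Eif4g2 and Eif4a3 by 0.04, 0.03 and 0.06. Under quantile normalization the median of the 9 was -0.04, so the direction of this small value turned with the scaling.

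The paralogous helicase genes Eif4a1 and Eif4a2 had differences of unlike sign. Eif4a1 was at 0.87 to 1.60 (median 1.39) in control and at 1.39 to 1.73 (median 1.58) in low protein rats, a difference of 0.22 ± 0.12 (adjusted p = 0.287). Eif4a2 was at 2.79 to 3.29 (median 3.11) and at 2.36 to 3.16 (median 2.94), a difference of -0.19 ± 0.14 (adjusted p = 0.488). The groups overlapped in both genes. The change of Eif4a1 less that of Eif4a2 was 0.41 ± 0.21 (95% interval -0.05 to 0.87; exact permutation p = 0.0671, adjusted 0.0671) and did not pass, with 2 low protein rats above every control rat. The interval allows no difference and a difference as large as 0.87. The pair passed with quantile normalization (exact permutation test, adjusted p = 0.0498).

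The 3 genes tested for subunit joining, eIF5A and eIF6 did not pass. Eif5b, which joins the ribosomal subunits, differed by 0.04 ± 0.09 (adjusted p = 0.871). Eif5a, the hypusine-bearing factor that helps the ribosome past difficult peptide bonds, differed by 0.05 ± 0.11 (adjusted p = 0.85), and Eif6, which keeps the large subunit from joining too early, by 0.05 ± 0.10 (adjusted p = 0.827). The signs of Eif5a and Eif6 turned under quantile normalization, where both were at -0.02.

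Of the 8 elongation factor genes, 1 rose, 0 fell and 7 were above 0, with a median of 0.16, or 0.08 with quantile normalization and 0.29 without scaling. Among all members 15.8% were called higher and 77.2% were above 0, and among all genes 3.48% and 44.9%. The member that rose, Eef1e1, is named for its similarity to elongation factors, while its product is an auxiliary protein of the tRNA synthetase complex. It was at -1.98 to -1.06 (median -1.46) in control rats and at -1.13 to -0.73 (median -0.95) in low protein rats. Of the low protein rats, 4 were above every control rat, and the control rats were the more widely spread. The difference was 0.58 ± 0.14 (adjusted p = 0.0335, 0.0175 to 0.0917 over the alternatives).

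Eef2, the translocase, was at 2.60 to 3.11 (median 2.84) in control rats and at 2.95 to 3.54 (median 3.19) in low protein rats. The groups overlapped, with 4 low protein rats above every control rat, and the difference was 0.33 ± 0.11 (adjusted p = 0.102). Eef1a1, the main carrier of charged tRNA, was at 6.42 to 6.69 (median 6.61) and at 6.55 to 7.01 (median 6.76), with 5 low protein rats above every control rat. Its difference was 0.20 ± 0.09 (adjusted p = 0.191), and its 3 probes gave 0.20 to 0.23. Eef2 passed without scaling, and Eef1a1 passed under quantile normalization, with an adjusted p of 0.0216 to 0.235 and 0.0398 to 0.383 over the alternatives.

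The exchange factor subunits of eEF1B were close to each other. Eef1b2 differed by 0.16 ± 0.07 (adjusted p = 0.189), Eef1d by 0.16 ± 0.07 (adjusted p = 0.196) and Eef1g by 0.10 ± 0.07 (adjusted p = 0.417). In Eef1b2 and Eef1d, 5 of the 6 low protein rats were above every control rat. Eefsec, the factor for selenocysteine, differed by 0.08 ± 0.09 (adjusted p = 0.676). Eef1a2, the paralog known from muscle and neurons, was the 1 member of this group below 0, at -2.28 to -1.86 (median -2.12) in control and -2.63 to -2.19 (median -2.32) in low protein rats. Its difference was -0.24 ± 0.10 (adjusted p = 0.164), with 4 low protein rats below every control rat.

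The genes that modify elongation factors did not pass. Eef2k, the kinase that inactivates eEF2, differed by -0.10 ± 0.18 (adjusted p = 0.808), and its sign was unlike on the slides, at -0.30 and 0.31. Eef2kmt, a methyltransferase of eEF2, differed by 0.27 ± 0.10 (adjusted p = 0.12), with 5 low protein rats above every control rat. Eef1akmt1, a methyltransferase of eEF1A, differed by 0.02 ± 0.08 (adjusted p = 0.929).

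Many translation factor mRNAs carry a TOP sequence, a pyrimidine tract at the start of the mRNA through which mTORC1 controls their translation. Of 10 members known for it (Eef1a1, Eef1a2, Eef1b2, Eef1d, Eef1g, Eef2, Eif3e, Eif3f, Eif3h and Eif4b), 0 changed (limma, adjusted p under 0.05). At an unadjusted p under 0.05, 5 were higher and 1 was lower. Among all 57 members these shares were 31.6% and 5.26%, and among all genes 10.3% and 11.3%. The difference was above 0 in 9, against 77.2% of all members and 44.9% of all genes. The median was 0.17, or 0.09 with quantile normalization and 0.30 without scaling. Beside the 0.17 stood a median of 0.12 over all members and -0.03 over all genes. Whether the TOP members differed from the other members was not tested. Array signal measures the amount of mRNA, so the translation of these mRNAs was not measured.

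Genes that work beside the members were read from lists named by function. Of 12 genes tested for poly(A) binding, termination and recycling, 3 rose and 0 fell, with a median of 0.07. Among all genes, 3.48% were called higher and 3.05% lower. Pabpc4, a poly(A)-binding protein, was at 0.98 to 1.38 (median 1.19) in control rats and at 1.52 to 1.67 (median 1.61) in low protein rats, with no overlap. Its difference was 0.43 ± 0.08 (adjusted p = 0.00704), and it passed under all 23 alternatives, with an adjusted p of 0.126 on slide 1 alone and 0.406 on slide 2 alone. Pabpc1, the main poly(A)-binding protein, rose by 0.24 ± 0.06 (adjusted p = 0.0441), without overlap of the groups, and did not pass under quantile normalization, without scaling or with any rat left out except low protein rat 2 (adjusted p 0.0144 to 0.31 over the alternatives). Gspt2, a release factor, rose by 0.66 ± 0.17 (adjusted p = 0.0392). The groups overlapped in Gspt2, its difference was 0.21 with normexp background correction, and the adjusted p ran from 0.00831 to 0.239. It passed with 3 of the 12 rats left out in turn, control rat 6 and low protein rats 5 and 6.

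Among 16 genes tested that regulate eIF2, eIF4E, eIF4A, eIF5A or eEF2 from outside the family, 2 rose and 1 fell, with a median of 0.09. The shares of all genes were 3.48% called higher and 3.05% called lower. Pdcd4, which inhibits the eIF4A helicase, was at -1.85 to -1.43 (median -1.73) in control and at -2.19 to -1.96 (median -2.01) in low protein rats, with no overlap. It fell by 0.36 ± 0.08 (adjusted p = 0.0204, 0.0137 to 0.427 over the alternatives, failing without scaling and without the filter on dim probes). Dph5 and Dph1, enzymes that make the diphthamide residue of eEF2, rose by 0.62 ± 0.11 (adjusted p = 0.00778) and by 0.34 ± 0.08 (adjusted p = 0.0225). Both had groups that did not overlap. Dph5 passed under all 23 alternatives, with an adjusted p of 0.103 on slide 1 alone and 0.407 on slide 2 alone. Dph1 passed under 19 and failed in 4, among them those without scaling, without the filter on dim probes and without control rat 3 (adjusted p = 0.0601, 0.00192 to 0.0836 over the alternatives). The 3 probes of Dph1 gave 0.33 to 1.13, and the diphthamide genes Dph2 and Dph3 differed by 0.08 ± 0.17 and 0.06 ± 0.07.

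Of 9 mitochondrial translation factor genes tested, 0 changed (limma, adjusted p under 0.05), and the median was 0.13. At an unadjusted p under 0.05, 3 were higher and 0 lower, against 10.3% and 11.3% of all genes. Tsfm, the mitochondrial exchange factor of elongation, differed by 0.27 ± 0.10 (adjusted p = 0.139), and Mtif2, which binds the initiator tRNA there, by 0.24 ± 0.10 (adjusted p = 0.186).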

How the data were processed

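Liver RNA of 12 rats, 6 per diet, was labelled with Cy3, 1 rat per array. The deposited scanner files hold intensity on a linear scale. Per the file headers, the authors made it with Agilent Feature Extraction 12.0.3.1. Groups and rat numbers come from the labels. Probes were named through the RefSeq accession in the files and a GRCr8 gene table, which matched 21215 of 45598 probes (46.5%). This replaced the planned gene name column. The headers name another build, so gene coordinates are given only for the promoters, from RefSeq's GRCr8 table.

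The processed signal was taken to log2, and the 75th percentile of each array was subtracted, which was 942.0 to 1317 intensity units. The scaling sets the level of all genes together, so a shift common to most genes is not visible. Outlier spots (453 to 739 per array) were set missing, and 0 spots were saturated. Spots of a probe were averaged. A probe was kept if 5 or more of the 6 arrays of either diet had it well above background, and the probe with the highest mean stood for its gene. Of the members tested, 40 had 1 probe on the array. In 15 of the 18 members with several probes that passed, these had the same sign, and the largest gap between them was 0.39, in Eif2d.

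Differences were tested two-sided with limma 3.58.1 (R 4.3.3, data.table version 1.17.8) on all 12 arrays with Benjamini-Hochberg adjustment over all 21858 genes. Every adjusted p comes from this fit unless a permutation test is named. The median standard error was 0.09 for the members and 0.13 for all genes, and the number of arrays limits the precision. The fit was tested on simulated arrays with 200 genes changed, each gene drawn independently. It recovered 44.8% of the 1.5-fold, 88.1% of the 2-fold and 97% of the 4-fold changes, and 4.38% of its calls were false. Changes smaller than 1.5-fold were not simulated, so a member that did not pass may still have changed by a small amount. Tables and figures used Python 3.11.15, pandas 2.3.3, numpy 2.4.6, scipy 1.17.1 and matplotlib 3.10.9. Motifs were searched on both strands of promoters of 300 bases.

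The members, gene lists, tests and alternatives were chosen with earlier results of these data known. Genes were named by rule: members that passed, up to 2 members with the smallest p in role groups with fewer, the eIF4E-binding, eIF2B and kinase genes within the rule, Eef1a1 and Eef2, and in each pathway list up to 4 changed genes or 2 with the smallest p. This gave 33 genes, 25 of them members. Other members are given to account for all of them, and were added after their values were seen. A planned pair with Eif4g1 was not analysed here.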

Additional observations from a re-analysis of the deposited data

How the results depend on the processing

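All 9 members that rose kept their direction under every alternative fitted, and 0 members were called lower under any. Their number was 9 with normexp correction (offset 50), quantile normalization, the deposited values, outlier spots kept and the slide as a block, 10 with a filter of all 12 arrays or a trended robust spread, and 8 with the mean of probes. It was 6 without scaling, 2 without the filter on dim probes and 2 at an adjusted p under 0.01. With each rat left out it was 3 to 8 (3 without control rat 1, 3 or 4, 4 without low protein rat 6, and 5 without control rat 2 or low protein rat 2, 4 or 5). Fits on a slide alone, chosen after seeing the data, called 1 member on slide 1 and 0 on slide 2. Over all genes, 1428 changed (761 higher, 667 lower), against 892 without scaling (680 higher, 212 lower), 618 without the filter, 438 at an adjusted p under 0.01, 2442 at one under 0.10, 164 on slide 1, 12 on slide 2 and 856 to 1307 with a rat left out, the lowest without control rat 3. Having no scaling shifted the median of all genes by 0.13, and the members' median of 0.12 became 0.25, while quantile normalization gave 0.07. Relative to the median of all genes, the members' median was 0.15 in the main fit. Leaving out the scaling shifts all genes nearly alike, so the 0.15 found there is no separate check. The relative value was 0.10 with quantile normalization, 0.17 with normexp correction and 0.15 with the deposited values.

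The change of Eif4a1 less that of Eif4a2 passed with quantile normalization (0.45, adjusted p = 0.0498) and was 0.27 to 0.50 with a rat left out, passing without control rat 2. That of Eif2ak1 less Eif2ak3 passed with quantile normalization (-0.41, adjusted p = 0.0404) and with the mean of probes (-0.39, adjusted p = 0.0317), and was -0.41 to -0.23 with a rat left out, passing without control rat 5 or 6 or low protein rat 3. Signs turned for Eef2k (0.033 without scaling, 0.31 on slide 2), Eif2ak1 (0.089 without scaling) and Eif4ebp2 (0.060 without scaling, 0.084 on slide 1, and -0.15 to 0.011 with a rat left out, above 0 without low protein rat 6). They also turned for Eif6 (-0.020 with quantile normalization, -0.0044 without control rat 5, -0.11 on slide 2) and Eif5a (-0.020 with quantile normalization, and -0.0043 to 0.11 with a rat left out, below 0 without control rat 4). The cause was not tested.

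The rat number as a replicate block left 7 members called: Eif2s1, Eif2s2 and Eif3g did not pass and Eef2 did. Of the genes beside the members, Dph1, Gspt2 and Pabpc1 did not pass with it. With it the change of Eif4a1 less Eif4a2 was 0.41 (adjusted p = 0.0417). Nothing in the labels pairs a control with a low protein rat, and deviations of rats of the same number correlated at 0.03 to 0.26, with 2 of 6 control rats closest to their own number, so the numbers were not taken as pairs.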
